A study of Mus musculus with 48 samples.

Results

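The gut of mice that had received faecal microbiota from donors on a ketogenic diet (KD) was compared between zeitgeber time (ZT) 12, when the lights go off, and ZT0, when they come on. The comparison used 8 expression arrays, 4 at each time, of 48 in the series, and covered 20702 named genes. Arrays were assigned by their titles, which give tissue, donor diet and time. Per the labels, the recipients were age-matched male C57BL/6J mice kept on a 12 hr light and 12 hr dark cycle with free access to food and water, and they ate a normal diet after the transplant, so that the diet named in a group is the donor's. The labels write the tissue as "Gut (DI)", which they do not spell out. Arrays of the same design came from recipients of normal chow (NC) and high-fat (HF) donors and from liver. The labels also mention germ-free mice and an antibiotic experiment, and they do not tie either to these arrays. Replicates carry the number in their title: 1, 4, 5 and 6 at ZT0 and 8, 10, 12 and 13 at ZT12. Values for single arrays are given in that order, as normalised log2 intensity. Nothing but the titles says that the arrays come from separate animals, so the p-values measure the spread between these arrays, which may be technical.

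The mammalian clock is a loop in which the activators BMAL1 (gene Arntl) and CLOCK or NPAS2 switch on the Per and Cry repressors of their own activity, together with REV-ERB repressors that act back on Arntl. Output factors such as DBP carry the rhythm to other genes. In the intestine of nocturnal rodents, transporters and digestive enzymes are known to follow the hours around feeding, and sterol synthesis is switched on by SREBP2 when cell sterol is low.

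Array medians lay between 126.8 and 135.8 intensity units in the 8 arrays. Correlations between arrays of the same time lay between 0.9867 and 0.9925 at ZT0 and between 0.9912 and 0.9944 at ZT12. The ZT0 arrays did not stand together: the mean of 12 B cell markers was 9.04, 9.23, 8.36 and 6.50 at ZT0 and 6.29, 6.44, 6.35 and 6.31 at ZT12, so that 3 of the ZT0 arrays were high and the last was close to the ZT12 arrays. Ileal markers averaged between 11.89 and 12.49 over the 8 arrays, those of proximal small intestine between 7.77 and 7.98 and those of colon between 7.37 and 7.50, and levels of different probes are not comparable with each other. Within the proximal list, the transcription factor gene Gata4 read 7.40, 8.86, 7.66 and 7.39 at ZT0 and 7.47, 8.42, 6.70 and 6.84 at ZT12. The lactase gene Lct, an enterocyte marker, read 8.92, 11.40, 8.79 and 9.08 and then 9.30, 10.90, 7.98 and 8.80. ZT0 replicate 4 and ZT12 replicate 10 were thus the highest of their group for both genes.

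Between the times, 826 genes (3.99%) passed an adjusted p of 0.05 with limma, 438 of them (2.12%) higher and 388 (1.87%) lower at ZT12. Most differences were small. The median size was 0.36 log2 units among the genes called higher and 0.36 among those called lower, 224 exceeded 0.5, 39 exceeded 1 (22 higher and 17 lower) and 10 exceeded 2. The median over all genes was 0.0044, and 4280 genes (20.7%) had an unadjusted p under 0.05 by limma. The 4 and 4 arrays did not overlap for 765 of the called genes and for 2797 (13.5%) of all genes. Calls were more frequent among brighter genes, from 1.02% in the dimmest of 4 equal classes by mean level over 3.15% and 5.43% to 6.36% in the brightest. Of the 11745 transcript clusters without a gene name, 7 were called (0.0596%), 4 higher (0.0341%) and 3 lower (0.0255%). Leaving out 1 array at a time gave between 343 and 816 calls: 343 without ZT0 replicate 4, 412, 414, 483 and 516 without ZT12 replicates 12, 10, 8 and 13, and 557 without ZT0 replicate 1 among them. Of the 826 genes, 252 were called whichever single array was left out.

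**Figure D1:**
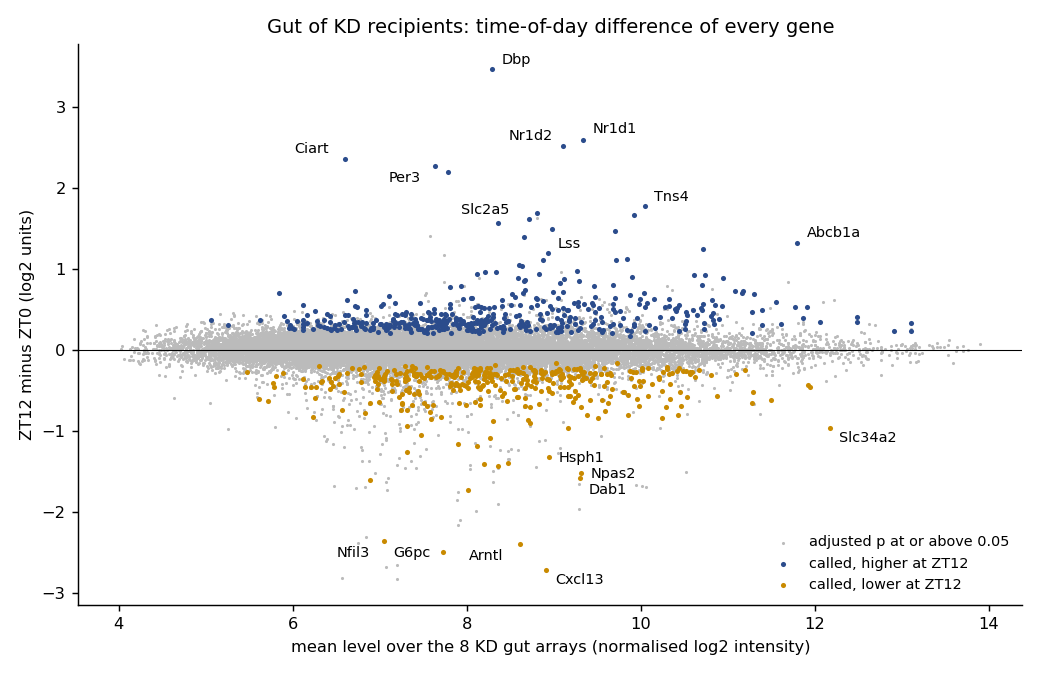
Each point is 1 of the 20702 genes, with its mean normalised log2 intensity over the 8 KD gut arrays on the x axis and the ZT12 minus ZT0 difference in log2 units on the y axis; blue and ochre points are the 438 and 388 genes called higher and lower at ZT12. Clock genes hold most of the extreme positions, with Dbp at 3.46, and Cxcl13, G6pc, Arntl and Nfil3 lie lowest among the called genes.

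Clock genes held most of the extremes of the comparison, with 8 of the 10 called differences beyond 2 log2 units. Of 22 core clock genes, 11 were called higher and 4 lower, beside 2.12% and 1.87% of all genes, and the list's median was 0.40. Dbp (transcript cluster 10553092), encoding an output transcription factor, read 6.87, 6.78, 6.17 and 6.44 at ZT0 and 9.89, 10.09, 10.16 and 9.96 at ZT12. No ZT12 array came near the ZT0 arrays. It rose by 3.46 ± 0.19 log2 units (± standard error, n = 4 and 4 arrays, adjusted p = 4.59e-11 by limma), 11.03-fold on the log2(intensity + 16) scale, which understates the change of dim genes. Tef, a relative of Dbp in the same family of factors, read 6.76, 6.88, 6.44 and 6.67 and then 8.79, 8.93, 8.93 and 8.88, a rise of 2.20 ± 0.11. Hlf, the other member of that family on the list, read between 7.55 and 7.91 at ZT0 and between 8.45 and 8.98 at ZT12 and rose by 0.96 ± 0.14. All 3 members of this family were therefore separated between the times without overlap, as were 765 of the 826 called genes.

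The repressors of the loop were mostly higher at ZT12. Nr1d1, which encodes REV-ERBα, read 7.35, 8.69, 7.31 and 8.84 at ZT0 and 10.37, 10.91, 10.62 and 10.62 at ZT12. Its ZT0 arrays fell into a lower pair (replicates 1 and 5) and a higher pair (replicates 4 and 6), both below the ZT12 arrays, and the rise was 2.59 ± 0.44 (adjusted p = 0.00108). Its partner Nr1d2 (REV-ERBβ) read 7.68, 7.93, 7.51 and 8.25 and then 10.28, 10.36, 10.43 and 10.40, with a narrower ZT12 group, and rose by 2.52 ± 0.19. Ciart, encoding a repressor of the activator pair, rose by 2.36 ± 0.16 from 5.09, 5.31, 5.82 and 5.46 to 7.59, 7.83, 7.97 and 7.75. Among the Period genes, Per3 rose by 2.28 ± 0.13, Per1 by 0.94 ± 0.18 and Per2 by 0.85 ± 0.13. Per1 at ZT0 was 7.61, 7.45 and 7.48 in 3 arrays and 8.07 in replicate 6, still under the lowest ZT12 value of 8.37. Its call ended with the B cell marker mean as a covariate (0.71 ± 0.19, adjusted p = 0.064). Cry2 rose by 0.45 ± 0.11 (adjusted p = 0.0226), a call that ended when any of 5 arrays was left out, and Bhlhe41, another repressor, rose by 0.54 ± 0.12, with a call that ended without ZT12 replicate 12.

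The activator genes Arntl and Npas2 and the repressor genes Nfil3 and Cry1 were called lower at ZT12. Arntl (transcript cluster 10556463) read 9.83, 9.90, 9.73 and 9.76 at ZT0 and 7.40, 7.54, 7.32 and 7.40 at ZT12, so that each group spanned a small part of the gap between them. It fell by 2.39 on the log2 scale, with a standard error of 0.13 (adjusted p = 4.59e-11). Npas2, which can take the place of CLOCK, was steady at ZT0 (10.06, 10.14, 10.02 and 10.10) and spread at ZT12 (8.57, 8.84, 8.45 and 8.37), a difference of -1.52 ± 0.16. Nfil3, which represses the genes that DBP activates, read 8.18, 8.57, 8.18 and 7.96 and then 5.80, 5.62, 5.85 and 6.19, a difference of -2.36 ± 0.15. Cry1 fell by 0.88 on the log2 scale, with a standard error of 0.14, in the opposite direction to Cry2. Clock itself read 10.40, 10.46, 10.35 and 10.50 and then 10.33, 10.24, 10.27 and 10.17: the groups did not overlap, but the difference of -0.18 ± 0.07 had an adjusted p of 0.17. Bhlhe40 (0.34 ± 0.15), Csnk1e (0.08 ± 0.07), Rora (0.01 ± 0.07) and Csnk1d (-0.03 ± 0.06) did not pass either. Leaving out 1 array at a time kept 13 to 15 of the 15 clock calls, and without ZT0 replicates 1, 4 and 5, the arrays with high B cell markers, 8 were made with 1 ZT0 array left and the list's median was 0.43.

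**Figure D2:**
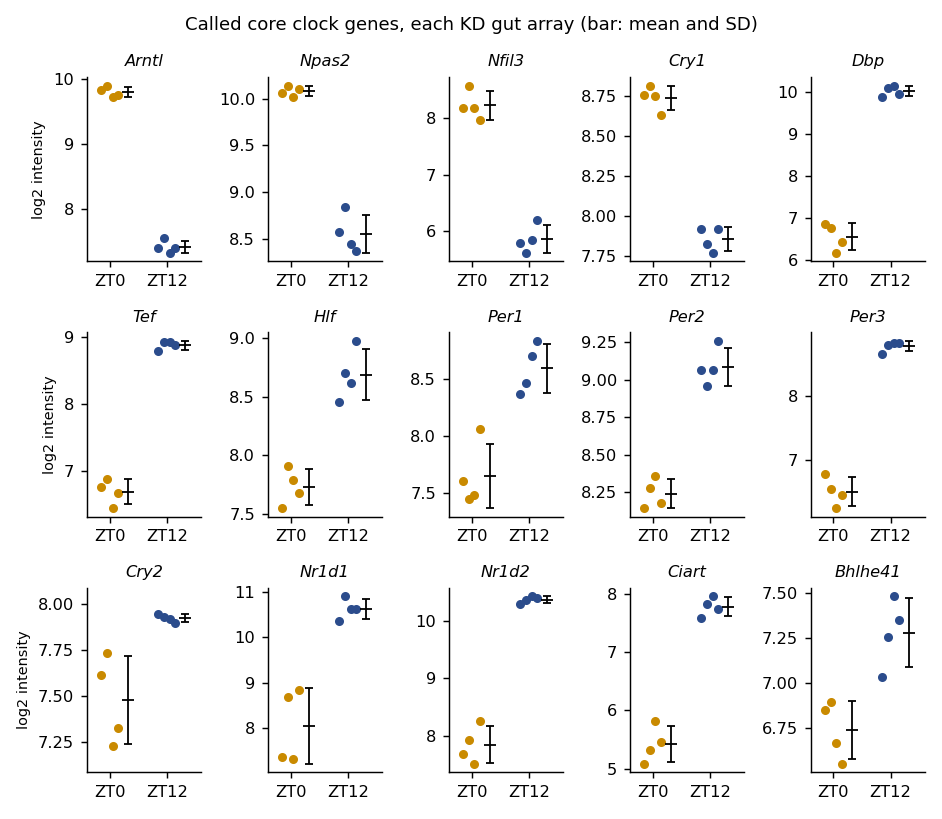
Each panel shows 1 of the 15 called core clock genes, with the normalised log2 intensity of the 4 ZT0 arrays (ochre) and the 4 ZT12 arrays (blue) and, beside each group, its mean and SD; panels have their own y range. Arntl, Npas2, Nfil3 and Cry1 are lower at ZT12 and the other 11 are higher, with no overlap between the times in any panel. Of all 826 called genes, 765 have no overlap.

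The windows from 250 bases before to 50 after the RefSeq transcript start were searched on both strands for the sites through which clock factors are known to act. The following promoters are shown because their genes are among the clock genes with the widest separation and each holds a match, in capitals: the E-box CACGTG, bound by the activator pair, in Ciart (chr3:95882179-95882478, minus strand) and Tef (chr15:81802423-81802722, plus strand), the D-box TTANGTAA, bound by DBP, TEF and NFIL3, in Per3 (chr4:151044616-151044915, minus strand), and the REV-ERB response element, GGTCA after an A and T rich stretch, in a window of Arntl (chr7:113207261-113207560, plus strand). Sequences are from RefSeq on build GRCm38.p6 and run 5′ to 3′ on the strand of the gene.
Ciart: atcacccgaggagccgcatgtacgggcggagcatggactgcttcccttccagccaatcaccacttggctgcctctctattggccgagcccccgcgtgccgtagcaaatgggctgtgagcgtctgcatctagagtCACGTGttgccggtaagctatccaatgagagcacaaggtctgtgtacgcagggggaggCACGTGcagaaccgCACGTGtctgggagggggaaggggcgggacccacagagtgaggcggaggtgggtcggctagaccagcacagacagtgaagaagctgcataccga
Tef: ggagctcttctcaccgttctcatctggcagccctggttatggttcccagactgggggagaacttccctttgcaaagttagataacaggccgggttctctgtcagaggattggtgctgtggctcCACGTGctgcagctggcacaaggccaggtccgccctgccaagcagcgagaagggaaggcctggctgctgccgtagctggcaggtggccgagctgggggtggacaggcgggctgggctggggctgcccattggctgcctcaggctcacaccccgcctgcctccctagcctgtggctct
Per3: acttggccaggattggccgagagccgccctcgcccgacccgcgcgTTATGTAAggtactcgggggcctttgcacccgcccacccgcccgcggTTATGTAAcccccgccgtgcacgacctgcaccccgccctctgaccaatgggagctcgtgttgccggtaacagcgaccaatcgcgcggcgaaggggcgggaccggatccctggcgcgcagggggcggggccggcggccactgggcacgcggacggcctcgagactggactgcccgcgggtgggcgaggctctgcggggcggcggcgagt
Arntl: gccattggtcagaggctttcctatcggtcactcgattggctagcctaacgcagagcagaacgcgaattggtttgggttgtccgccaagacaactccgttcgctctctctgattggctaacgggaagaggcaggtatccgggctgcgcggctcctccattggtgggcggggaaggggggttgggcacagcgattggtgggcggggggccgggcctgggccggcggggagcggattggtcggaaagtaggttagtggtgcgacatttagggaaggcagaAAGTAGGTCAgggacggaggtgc
Ciart held 3 E-boxes, Tef 1, Per3 2 D-boxes and Arntl 1 REV-ERB site. The table gave 19486 windows for 15877 of the genes tested. An E-box was in 8.2% of all windows, in 13.1% of the 419 windows of genes called higher and in 8.2% of the 417 windows of genes called lower. A D-box was in 2.0%, 2.1% and 1.4%, and the REV-ERB site in 0.5%, 0.7% and 1.4%, in the same order. In the core clock list 6 of 25 windows held an E-box, 1 a D-box and 1 the REV-ERB site. The windows of Per3 and Arntl shown are thus the only ones of the list with these last sites. These are matches of letters, not measured binding.

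A few clock outputs and glucocorticoid targets were called higher, with smaller sizes, beside 2.12% of all genes. Of 14 clock output genes 4 were called, each higher: the ubiquitin protease gene Usp2 (0.98 ± 0.11), the cell cycle kinase gene Wee1 (0.53 ± 0.09), the tetraspanin gene Tspan4 (0.45 ± 0.11) and Nampt (0.49 ± 0.13), the rate-limiting enzyme of NAD salvage. Usp2 read 8.84, 8.56, 8.86 and 8.83 at ZT0 and 9.72, 9.58, 9.83 and 9.87 at ZT12. The Nampt groups overlapped (up to 9.32 at ZT0, from 9.24 at ZT12), and its call ended when any of 7 arrays was left out, that of Tspan4 without ZT0 replicate 4 or 6 or ZT12 replicate 12 or 13. In the list of 17 NAD genes, Nmrk1, a nicotinamide riboside kinase, rose by 0.73 ± 0.12, and with Nampt it was 1 of 2 members called. Glucocorticoid-responsive genes were called in 3 of 17 members, Klf9 (0.51 ± 0.09), Zbtb16 (0.67 ± 0.12) and Klf15 (0.38 ± 0.09), all encoding transcription factors, while the list's median was 0.01. The Klf15 call ended without ZT0 replicate 1 or 4 or ZT12 replicate 10. With the B cell marker covariate the calls of Tspan4, Nampt and Klf15 ended.

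Genes of cholesterol synthesis were higher at ZT12 as a group. Of 21 members, 14 were called, each higher, against 2.12% of all genes, and 21 had a difference above 0, with a median of 0.63 against 0.0044 over all genes. Lss, which closes the sterol rings, had the widest difference of the list, from 8.73, 8.03, 8.42 and 8.17 at ZT0 to 9.46, 9.30, 9.57 and 9.81 at ZT12, a rise of 1.19 ± 0.18 (adjusted p = 0.000429). Acat2, which makes acetoacetyl-CoA for the pathway, read 7.76, 7.52, 7.77 and 7.52 and then 8.22, 8.16, 8.27 and 8.45. Neither gene overlapped between the times, like 765 of the 826 called genes. Replicate 4 was the lowest ZT0 array for Lss and close to the lowest, replicate 6, for Acat2. Hmgcs1, which makes HMG-CoA, rose by 0.69 ± 0.14, and the mevalonate pathway enzymes Acat2, Mvk, Mvd and Idi1 rose by 0.63 ± 0.11, 0.52 ± 0.09, 0.73 ± 0.20 and 0.90 ± 0.19. The call of Mvd ended when any of 6 arrays was left out. Fdft1 and Sqle, the steps into squalene and out of it, were at 0.75 ± 0.22 and 0.79 ± 0.24 with adjusted p = 0.060 and 0.064, Sc5d was at 0.25, and the late enzymes Tm7sf2, Lbr, Ebp and Dhcr7 lay between 0.06 and 0.21 and were not called. The mean level of the list in each array was 9.86, 9.26, 9.69 and 9.56 at ZT0 and 10.14, 10.04, 10.19 and 10.31 at ZT12.

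Genes of sterol sensing and transport moved with the enzymes in part. The list of 19 sterol sensing and transport genes had 4 called higher and 1 lower, beside 2.12% and 1.87% of all genes. Its median was 0.02, which was -0.01 without the quantile step. The SREBP retention factor Insig1 rose by 0.92 ± 0.18, from 10.52, 9.88, 10.23 and 9.96 to 11.05, 10.80, 11.17 and 11.26. Its relative Insig2 went the other way, from 10.07, 9.79, 9.70 and 9.57 to 9.04, 8.91, 9.01 and 8.93, a difference of -0.81 ± 0.16. The sterol carrier gene Stard4 rose by 0.51 ± 0.07. Without ZT0 replicate 4, which was the lowest ZT0 array for 19 of the 21 enzymes and the highest ZT0 array for Gata4 and Lct, the cholesterol synthesis calls were 7 and the median 0.49, without ZT12 replicate 13 they were 8, and without ZT0 replicates 1, 4 and 5 they were 2 with a median of 0.67. The part of gut region or of the B cell markers in these values was not tested, and with the B cell marker mean as a covariate 4 were called, at a median of 0.48. With that covariate the calls of Hmgcs1, Idi1, Mvd and Insig1 ended.

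The promoter of Hmgcs1 is shown as the one window of the list with the sterol response letters TCACNCCAC, in capitals (chr13:119690101-119690400, plus strand, RefSeq GRCm38.p6).
Hmgcs1: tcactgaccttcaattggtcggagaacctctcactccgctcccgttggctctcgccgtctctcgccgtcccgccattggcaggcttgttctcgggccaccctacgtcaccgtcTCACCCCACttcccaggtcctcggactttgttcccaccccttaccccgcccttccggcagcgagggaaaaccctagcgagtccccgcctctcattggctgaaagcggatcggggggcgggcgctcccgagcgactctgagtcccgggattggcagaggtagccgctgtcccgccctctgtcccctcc
These letters, searched on both strands, were in 1.2% of all windows, 2.6% of those of genes called higher, 1.0% of those of genes called lower and 1 of 19 windows (5.3%) of cholesterol synthesis genes. The CCAAT box, the site of NF-Y, was in 15 of those 19 windows (78.9%) against 37.8% of all windows. It was also in 64.0% of core clock windows and 50.0% of those of the heat shock and cold-inducible list. Genes called higher had it in 44.4% of windows and those called lower in 31.9%.

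**Figure D3:**
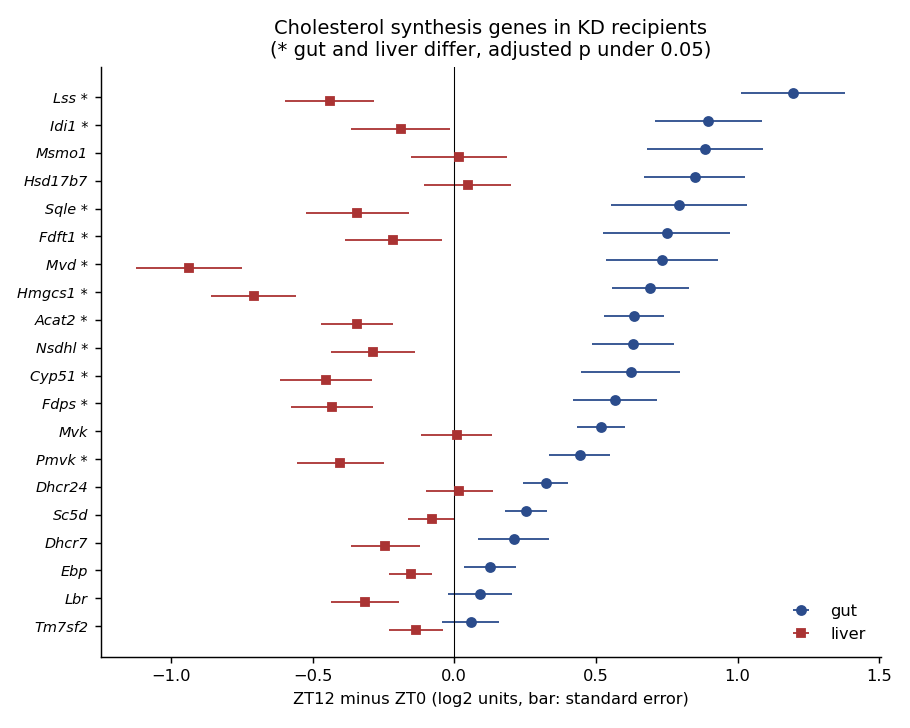
For 20 of the 21 cholesterol synthesis genes, the ZT12 minus ZT0 difference of KD recipients is shown in log2 units with its standard error, for gut (blue circles) and liver (red squares); an asterisk marks the 11 genes whose gut and liver differences differed with an adjusted p under 0.05. The gut values of the 20 genes lie above 0, while the liver values run from -0.94 for Mvd to 0.05 for Hsd17b7.

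Sugar digestion and transport rose in 5 of 15 members, beside 2.12% of all genes, with a list median of 0.15. Slc2a5, the fructose transporter GLUT5, read 7.995, 8.11, 7.64 and 7.91 at ZT0 and 9.27, 9.65, 9.71 and 9.49 at ZT12, and rose by 1.62 ± 0.24 (adjusted p = 0.0003). Slc2a2, the GLUT2 transporter of glucose and fructose, read 9.10, 9.77, 8.68 and 8.34 and then 10.49, 10.63, 10.34 and 10.28, a rise of 1.47 ± 0.35 whose call ended without ZT0 replicate 6, ZT12 replicate 8 or ZT12 replicate 10 (adjusted p = 0.0219 with all arrays). The sodium-coupled glucose carrier Slc5a1 (SGLT1) went from 11.57, 11.68, 11.69 and 11.63 to 12.05, 12.20, 12.30 and 12.14, a rise of 0.53 ± 0.10. Each of these transporters was separated between the times, as were 765 of the 826 called genes. The brush border disaccharidase genes Sis (sucrase-isomaltase, 0.33 ± 0.07) and Mgam (maltase-glucoamylase, 0.23 ± 0.06) were bright at both times and rose less. The Mgam call ended without ZT0 replicate 4 or 6 or ZT12 replicate 8 or 12. The sugar list had 3 calls without ZT0 replicate 6 or ZT12 replicate 8, and none by limma without ZT0 replicates 1, 4 and 5, at a median of 0.27. Slc2a2 was highest in ZT0 replicate 4 and in ZT12 replicate 10, the arrays that were highest for Gata4 and Lct. The mean of the sugar list was 10.07, 10.42, 9.88 and 10.02 at ZT0 and 10.49, 10.78, 10.37 and 10.36 at ZT12, so that ZT0 replicate 4 lay above ZT12 replicates 12 and 13. Of the 12 enterocyte markers, 11 had their lowest ZT0 value in replicate 5. The part of gut region or of enterocyte content in the sugar values was not tested.

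A few other carriers of the absorptive cell were called higher. Of all genes, 3.99% were called in either direction and 2.12% higher, and of the brightest class 6.36% were called. Of 20 amino acid and peptide carriers 2 were called, the neutral amino acid carrier Slc6a19 (0.53 ± 0.11) and the taurine carrier Slc6a6 (0.49 ± 0.08), both higher, and 18 had a difference above 0, with a median of 0.15. Of 21 ion and water transport genes 3 were called, each higher, among them the sodium pump subunit gene Atp1b1 (0.34 ± 0.06) and the exchanger scaffold gene Slc9a3r1 (0.39 ± 0.09), whose call ended without ZT12 replicate 12. Slc51a, a subunit of the basolateral bile acid exporter, was at 0.35 ± 0.10 (adjusted p = 0.0481), and its call ended when any of 7 arrays was left out and with the B cell marker covariate. Slc10a2, the ileal bile acid importer, read 11.69, 10.28, 11.42 and 11.69 and then 12.22, 11.69, 12.39 and 12.13, with the lowest value of each time in the array that was highest for Gata4 and Lct (0.84 ± 0.30, adjusted p = 0.11).

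Mineral carriers moved both ways, beside 2.12% of all genes called higher and 1.87% called lower. Slc34a2, the intestinal phosphate transporter NaPi-IIb, was high in all ZT0 arrays (12.67, 12.72, 12.57 and 12.68) and lower at ZT12 (11.70, 11.91, 11.58 and 11.60), a difference of -0.96 ± 0.13 (adjusted p = 8.67e-05). The zinc importer gene Slc39a4 was at -0.30 ± 0.08. The metallothionein genes, whose products bind zinc, were higher: Mt2 read 8.65, 9.20, 8.98 and 9.53 and then 11.34, 10.17, 10.32 and 11.19 (1.67 ± 0.40), and Mt1 rose by 0.72 ± 0.17. The ZT12 values of Mt2 fell into a higher pair (replicates 8 and 13) and a lower pair, and its call ended without either array of the higher pair or without ZT0 replicate 1 or 4, and that of Mt1 without either array of the higher pair. The call of Slc39a4 ended when any of the 8 arrays was left out. With the B cell marker covariate the calls of Mt2, Mt1 and Slc39a4 ended, and the list of 19 vitamin, mineral and metal transport genes had 1 call instead of 4.

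Efflux pumps of the apical membrane were among the strongest rises. Abcb1a, encoding a P-glycoprotein drug pump, read 11.57, 10.82, 10.91 and 11.25 at ZT0 and 12.48, 12.28, 12.58 and 12.51 at ZT12, a rise of 1.32 ± 0.15 (adjusted p = 4.70e-06). Its close copy Abcb1b, whose sequence is similar enough that the pair's values are uncertain, read 8.75, 7.85, 7.87 and 8.44 and then 9.63, 9.66, 9.68 and 9.90, a rise of 1.49 ± 0.16. In both, ZT0 replicates 1 and 6 were above replicates 4 and 5 and below the ZT12 arrays. Abcc2 (MRP2), which exports conjugated drugs, rose by 1.25 ± 0.27, and the quinone reductase gene Nqo1 by 0.36 ± 0.09, with a call that ended without ZT0 replicate 4 or ZT12 replicate 8 and with the B cell marker covariate. These were the 4 calls among 29 drug efflux and xenobiotic genes, beside 3.99% of all genes. The list's median was 0.04, so it did not move as a whole.

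**Figure D4:**
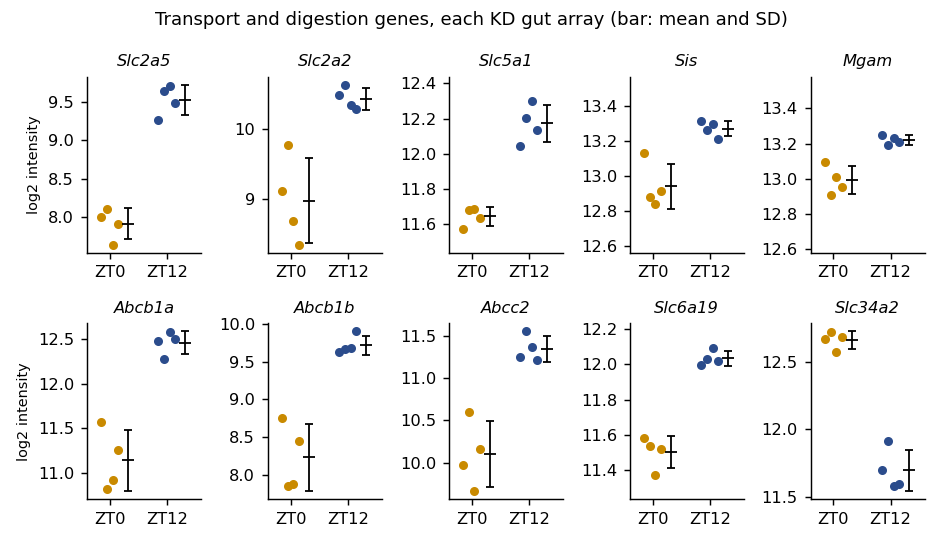
Normalised log2 intensity of 10 transport and digestion genes in the 4 ZT0 arrays (ochre) and 4 ZT12 arrays (blue) of the KD gut, with the mean and SD beside each group; panels have their own y range. Slc34a2 is lower at ZT12 and the other 9 are higher, with the widest spread at ZT0 in Slc2a2, Abcb1a, Abcb1b and Abcc2.

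Other genes with large rises were Tns4, encoding a focal adhesion adaptor (1.78 ± 0.17, from 9.36, 8.90, 8.83 and 9.55 to 10.77, 10.88, 11.11 and 10.99), and Akr1c19, an aldo-keto reductase gene (1.70 ± 0.28). Nat8f5, of a family of N-acetyltransferase genes, rose by 1.56 ± 0.27, with 8.47 in ZT0 replicate 1 above the 3 other ZT0 arrays. Genes of glucose production included a strong fall in the last step of glucose release. G6pc, the glucose-6-phosphatase gene, read 9.40, 9.35, 8.35 and 8.81 at ZT0 and 6.30, 7.16, 6.16 and 6.32 at ZT12, a difference of -2.50 ± 0.46 (adjusted p = 0.00279). The carrier that feeds its enzyme, Slc37a4, went the other way (0.53 ± 0.08), as did Got1, an aspartate aminotransferase gene (0.53 ± 0.09), while Pck1, the rate-limiting enzyme of gluconeogenesis, was at 0.89 ± 0.48 and was not called.

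Large falls outside the clock were found in single genes of differing kinds. Dab1, an adaptor of reelin signalling, read 9.94, 10.18, 9.97 and 10.28 and then 8.56, 8.51, 8.51 and 8.45 (-1.58 ± 0.13), and the transcript AY512949 read 8.87, 9.07, 8.65 and 8.96 and then 7.16, 7.09, 7.17 and 7.20 (-1.73 ± 0.14). Both had ZT12 groups much narrower than the gap. Tmem252, a membrane protein gene, was at -1.44 ± 0.15, Ypel2 at -1.41 ± 0.16, Rnf125, a ubiquitin ligase gene, at -1.40 ± 0.14, Denn2b at -1.19 ± 0.08 and Spon2, encoding a secreted matrix protein, at -1.17 ± 0.11. Cldn8, a claudin of the tight junction, read 8.25, 7.66, 7.94 and 7.95 and then 6.62, 6.31, 6.78 and 7.01 (-1.27 ± 0.22). With Tjp3, encoding a junction scaffold (-0.36 ± 0.09), it made up the 2 calls among 18 tight junction genes, both lower, beside 1.87% of all genes. The median of the tight junction list was -0.05. The Tjp3 call ended without ZT0 replicate 4 or ZT12 replicate 8 or 10.

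Chaperone genes were called lower at ZT12 in a minority of members, while most of their list lay below 0. Of 15 heat shock and cold-inducible genes, 3 were called lower and 1 higher, beside 1.87% and 2.12% of all genes, with a median of -0.25. Of the 15, 3 had a difference above 0, and 9 had an unadjusted p under 0.05 by limma, beside 20.7% of all genes. Hsph1, encoding a large chaperone of the HSP110 family, read 8.99, 9.90, 9.75 and 9.80 and then 8.47, 8.37, 8.20 and 8.10, a difference of -1.32 ± 0.32 whose call ended without ZT0 replicate 4 or ZT12 replicate 12 or 13. The HSP90 genes Hsp90ab1 and Hsp90aa1 were at -0.44 ± 0.09 and -0.52 ± 0.15, the latter with adjusted p = 0.0459 and a call that ended when any of 7 arrays was left out and with the B cell marker covariate. The member called higher was the cold-inducible RNA-binding protein gene Rbm3, from 11.40, 11.20, 11.21 and 11.20 to 11.86, 11.72, 11.97 and 11.84 (0.60 ± 0.08). The list had 1 lower call without ZT0 replicate 4, ZT12 replicate 12 or ZT12 replicate 13, and 4 without ZT0 replicate 1. Its mean was 9.87, 10.08, 10.10 and 10.15 at ZT0 and 9.83, 9.80, 9.84 and 9.82 at ZT12. ZT0 replicate 1 thus lay close to the ZT12 arrays, and it was the lowest ZT0 array for 12 of the 15 members. The Hsph1 window is shown because its capitals match the heat shock element, in which GAA and TTC blocks alternate with a pair of free bases between them, searched on both strands (chr5:149636287-149636586, minus strand, RefSeq GRCm38.p6).
Hsph1: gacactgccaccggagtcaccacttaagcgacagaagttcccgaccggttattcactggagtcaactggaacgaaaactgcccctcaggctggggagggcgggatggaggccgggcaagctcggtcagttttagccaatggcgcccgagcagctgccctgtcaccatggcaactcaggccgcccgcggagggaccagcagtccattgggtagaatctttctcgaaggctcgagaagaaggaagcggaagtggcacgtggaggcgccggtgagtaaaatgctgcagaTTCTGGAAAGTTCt
That element was in 4 of 16 windows (25.0%) of the list's genes and in 0.5% of all windows, and in 0.2% and 0.5% of the windows of genes called higher and lower.

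In the unfolded protein response list 3 of 24 members were called lower and 2 higher, beside 1.87% and 2.12% of all genes. Its median was -0.18, and 6 of the 24 had a difference above 0. An unadjusted p under 0.05 by limma was found for 16, beside 20.7% of all genes. Syvn1, a ligase that marks misfolded proteins of the endoplasmic reticulum for removal, read 9.40, 10.06, 9.69 and 9.73 and then 9.04, 9.06, 9.09 and 9.20 (-0.63 ± 0.10). Sdf2l1 (-0.58 ± 0.11) and Edem1 (-0.23 ± 0.06) were the others called lower. Herpud1 (0.55 ± 0.13), another gene of protein removal, and Trib3 (0.45 ± 0.10), a pseudokinase gene of the stress response, were called higher. Edem1 lost its call when any of the 8 arrays was left out, and Herpud1 without ZT0 replicate 1 or ZT12 replicate 10 or 12. With the B cell marker covariate the calls of Trib3, Herpud1 and Edem1 ended, which left 2 lower calls and 0 higher ones by limma. The mean of the list was 9.89, 10.11, 10.05 and 9.97 at ZT0 and 9.90, 9.83, 9.89 and 9.85 at ZT12. ZT0 replicate 1 was thus at the level of the ZT12 arrays, and it was the lowest ZT0 array for 16 of the 24 members.

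A few genes of immune cells and of bacterial sensing were called lower at ZT12, and the B cell markers moved with them. Cxcl13, the chemokine that draws B cells into follicles, had the largest fall of any called gene: it read 11.04, 11.11, 10.55 and 8.38 at ZT0 and 7.59, 7.71, 7.78 and 7.13 at ZT12, a difference of -2.72 ± 0.77 (adjusted p = 0.0482). ZT0 replicate 6 lay nearer to the ZT12 arrays than to the other ZT0 arrays. Rasgrp3, a Ras activator gene, showed the same order (8.23, 8.49, 7.50 and 6.57, then 6.03, 6.10, 6.07 and 6.17), at -1.60 ± 0.44. Both calls ended when any of 7 arrays was left out, all but ZT0 replicate 6. Ciita, the master regulator of MHC class II, was the single call among 9 class II presentation genes (-0.94 ± 0.25), beside 1.87% of all genes called lower. The class II list's median was -0.76. The Ciita call ended when any of 5 arrays was left out. None of the 12 B cell markers was called by limma, though 12 had an unadjusted p under 0.05, beside 20.7% of all genes. The 12 markers lay below 0, with a median of -1.93, and 8 were called without ZT0 replicate 6. Cd79a, a B cell receptor chain gene, read 9.73, 9.74, 8.95 and 6.03 and then 5.35, 6.00, 5.81 and 5.95. Without ZT0 replicates 1, 4 and 5 the median of the B cell list was -0.05 and that of the class II list -0.52, and Cxcl13, Rasgrp3 and Ciita were at -0.83 ± 1.19, -0.47 ± 0.65 and -0.51 ± 0.37. With the marker mean as a covariate they were at -0.58 ± 0.21, -0.39 ± 0.13 and -0.35 ± 0.16, with adjusted p = 0.17, 0.12 and 0.30. In NC recipients Cxcl13, Rasgrp3 and Ciita were higher at ZT12, with means of 9.63, 7.57 and 7.51 at ZT0 and 11.02, 8.17 and 7.86 at ZT12. Their means in HF recipients were 8.88, 7.24 and 7.41 and then 8.55, 6.60 and 7.09. Fewer cells of a type and less RNA per cell cannot be told apart in such tissue samples.

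Of 20 genes of bacterial sensing and NF-kB, 3 were called, each lower, beside 1.87% of all genes, with a median of -0.16. Nfkbid, encoding a nuclear inhibitor protein of the NF-kB family, read 6.72, 6.59, 6.48 and 6.45 and then 6.07, 6.00, 5.86 and 5.91 (-0.60 ± 0.09, adjusted p = 0.000167). The NF-kB subunit genes Rela and Nfkb2 were at -0.35 ± 0.06 and -0.44 ± 0.10. The 3 genes had no overlap between the times, which held for 765 of the 826 called genes and 13.5% of all genes. With the B cell marker mean as a covariate, Nfkbid was at -0.43 ± 0.07 (adjusted p = 0.0023), Rela at -0.34 ± 0.08 (adjusted p = 0.024) and Nfkb2 at -0.35 ± 0.11 (adjusted p = 0.10). Among 20 antimicrobial and acute phase genes none was called by limma, with 0 at an unadjusted p under 0.05, and the 2 with the smallest p were the oxidase gene Duox2 (-1.07 ± 0.54) and its maturation factor Duoxa2 (-1.44 ± 0.75). Among 22 interferon-stimulated genes none was called by limma, with 6 at an unadjusted p under 0.05, beside 20.7% of all genes. Bst2 and Irf9 were at -0.24 ± 0.08 and -0.31 ± 0.11.

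**Figure D5:**
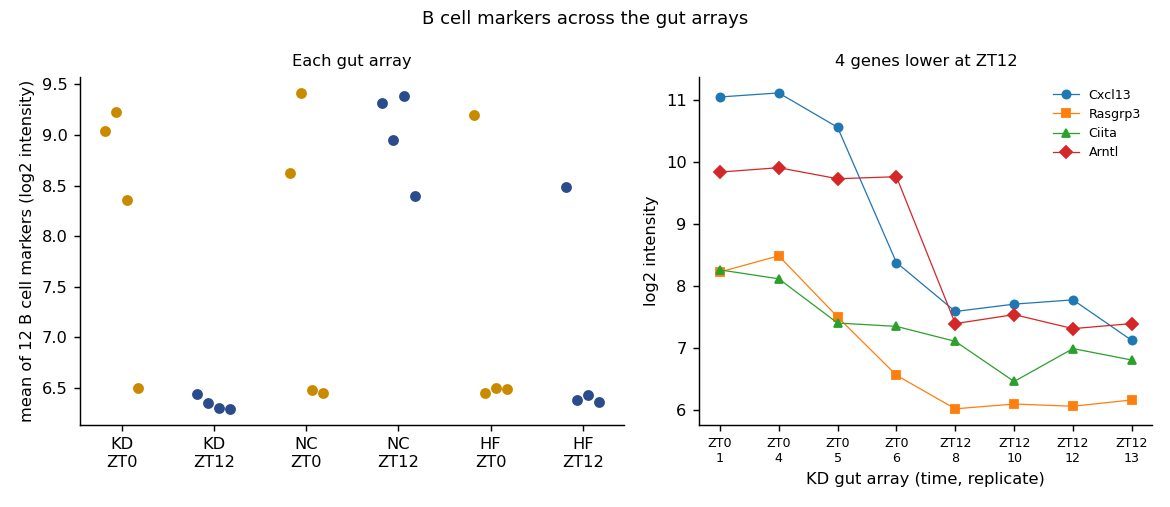
The left panel shows the mean normalised log2 intensity of 12 B cell markers in each gut array by donor diet and time, and the right panel the log2 intensity of Cxcl13, Rasgrp3, Ciita and Arntl in the 8 KD arrays, named by time and replicate. Among KD arrays, ZT0 replicates 1, 4 and 5 lie at 8.36 or above and the other 5 at 6.50 or below, while Arntl is at 9.73 or above in all 4 ZT0 arrays.

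The remaining lists changed in few members, beside 3.99% of all genes called in either direction. The 1 call each of the fatty acid and cell cycle lists is close to that share. Pparg (0.44 ± 0.12, adjusted p = 0.044) and the lipid droplet protein gene Plin5 (0.34 ± 0.07) were called among 18 PPARγ and lipid droplet genes, and the Pparg call ended when any of 7 arrays was left out. Acss2, which activates acetate (0.54 ± 0.15), was the 1 call of 21 fatty acid and triglyceride synthesis genes, Cpt2, a carnitine acyltransferase gene (-0.31 ± 0.08), the 1 call of 24 fatty acid oxidation genes, and Ccne1, encoding cyclin E1 (0.26 ± 0.07), the 1 call of 26 cell cycle genes. Those of Acss2 and Cpt2 ended when any of 7 arrays was left out, and that of Ccne1 when any of 5 was. With the B cell marker covariate the calls of Pparg, Plin5, Acss2, Cpt2 and Ccne1 ended. Among 21 immediate early genes none was called by limma, with 2 at an unadjusted p under 0.05, beside 20.7% of all genes. Jun and Ier2 were at -0.45 ± 0.15 and -0.23 ± 0.08. Enterocyte, goblet, Paneth and stem cell markers had medians between 0.03 and 0.11, with Sis the only call among them. Plasma cell, endothelial, macrophage and lymphocyte markers lay mostly below 0. Of 8 plasma cell markers 1 lay above 0, with a median of -0.44, and Prdm1, the transcription factor gene of plasma cell formation, was called lower (-0.65 ± 0.15, adjusted p = 0.0156). None of 9 endothelial markers lay above 0, with a median of -0.21, and the endothelial adhesion gene Pecam1 was called lower (-0.77 ± 0.18, adjusted p = 0.0205). Both calls ended with the B cell marker covariate, that of Prdm1 also without ZT0 replicate 1 or 4 or ZT12 replicate 12, and that of Pecam1 without ZT0 replicate 4 or ZT12 replicate 8 or 10. Macrophage and dendritic cell markers (2 of 12 above 0, median -0.24) and T and intraepithelial lymphocyte markers (1 of 12 above 0, median -0.18) had no call by limma. Of them, 5 and 2 had an unadjusted p under 0.05, beside 20.7% of all genes. The part of these cells in the other results was not tested.

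With the B cell marker mean as a covariate, 352 genes were called over the whole comparison, 297 of them among the 826. Without ZT0 replicates 1, 4 and 5, which leaves 1 ZT0 array whose spread is assumed to be that of the other groups, 48 were called. The 438 genes called higher had a median of 0.36 with all arrays, 0.34 with the covariate and 0.34 without those arrays, and the 388 called lower had -0.36, -0.34 and -0.34. ZT0 replicate 6 took part in the choice of these genes, so these medians are a description.

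Whether the time difference depended on the donor diet was tested as the difference between differences, in the same fit. Against NC recipients, 1 of 20702 genes passed (0.00483%), the olfactory receptor gene Olfr192, which is named after its values were seen: it was at 0.20 ± 0.10 in KD and -0.70 ± 0.10 in NC recipients, a difference of 0.90 ± 0.14 (adjusted p = 0.0225). It is a dim probe, with mean intensities of 10.7 and 15.2 units at ZT0 and ZT12 in KD recipients. No gene passed without the quantile step, with an offset of 1, without dim genes or with the B cell marker covariate. The same held in 11 of 16 fits that left out 1 array, those of KD ZT0 replicates 1, 4 and 6, KD ZT12 replicates 8, 12 and 13, NC ZT0 replicates 1, 3 and 4 and NC ZT12 replicates 11 and 12. Against HF recipients no gene passed by limma, with 516 genes (2.49%) at unadjusted p under 0.05, against 1376 (6.65%) for NC. The smallest adjusted p after Olfr192 was that of Nfkbid, at -0.68 ± 0.12 (adjusted p = 0.105): it was at 0.08 ± 0.09 in NC and -0.31 ± 0.09 in HF recipients. The genes Mthfd2l (0.38 ± 0.08), Cnr2 (-0.96 ± 0.22) and Rcsd1 (-0.65 ± 0.16) followed for NC, each with adjusted p = 0.47. For HF, genes with small p-values were Avpr1b (0.45 ± 0.11), Mcm6 (0.48 ± 0.12), Armcx5 (0.44 ± 0.11) and Mcm7 (0.47 ± 0.13), each with adjusted p = 0.9997. Of the genes named here, Nfkbid, Cnr2, Avpr1b and Armcx5 were dim too, which limits what their values show. Their gut means lay between 5.52 and 6.57 in NC and HF recipients, and the dimmest class by mean level ran up to 6.49. In NC recipients the B cell marker mean was 8.39 or above in the 4 ZT12 arrays and in 2 ZT0 arrays, and the B cell list had a median of 1.42, against -0.22 in HF recipients.

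The KD calls were set beside those of the other diets, whose fits share the estimate of spread but no arrays. Of the 826 genes, 282 were called in the same direction in NC recipients, 34.1% of the KD calls and 57.1% of the 494 NC calls (2.39% of genes), and 342 in HF recipients, 41.4% of the KD calls and 49.8% of the 687 HF calls (3.32% of genes). No gene was called in opposite directions. The difference had the same sign as in KD recipients for 760 genes in NC and 814 in HF recipients. Equal signs were not counted over all genes, so these counts have no baseline. The 431 genes called in KD recipients alone are not thereby shown to differ. The cholesterol synthesis list had medians of 0.49 in NC and 0.38 in HF recipients with 10 and 2 calls, against 0.63 and 14, and no member of it passed the test of the difference.

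Gut and liver of KD recipients did differ. In a joint fit of the 16 arrays, 565 genes (2.73%) had a gut difference unlike the liver's, 318 higher (1.54%) and 247 lower (1.19%) on the gut side, and 150 of them were among the 826. Without the quantile step the split was 204 and 272. The liver had 1554 calls (7.51%), 2.73% of genes higher and 4.78% lower, and 131 genes were called in both tissues in the same direction, 15.9% of the gut calls and 8.43% of the liver calls, while 14 were higher in gut and lower in liver and 4 the reverse. Of the 21 cholesterol synthesis genes, 11 differed between the tissues, and the list's median was 0.63 in gut and -0.24 in liver. In liver itself 2 of the 21 were called, both lower. Leaving out each of the 16 arrays ended the difference calls of Pmvk and Fdft1 in 11 fits each. Those of Idi1 and Nsdhl ended in 3 fits each and that of Sqle in 2. Those of Lss, Acat2, Hmgcs1, Mvd, Fdps and Cyp51 held in all. Lss was at -0.44 ± 0.16 in liver, a difference of 1.63 ± 0.22 (adjusted p = 0.000509), Mvd at -0.94 ± 0.19 (difference 1.67 ± 0.26) and Hmgcs1 at -0.71 ± 0.15 (difference 1.40 ± 0.21).

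Within the clock, 5 of 22 genes differed between the tissues, beside 2.73% of all genes, among them Npas2, Clock, Nr1d1 and Per3. Npas2 fell far less in gut than in liver, where it was at -5.02 ± 0.23 (difference 3.49 ± 0.33), and Clock, at -1.08 ± 0.08 in liver, differed by 0.90 ± 0.11. Nr1d1 rose in gut but was at 0.62 ± 0.31 in liver (difference 1.97 ± 0.44, adjusted p = 0.0223), a call that ended without liver ZT12 replicate 12. Per3 rose more in liver (3.12 ± 0.10, difference -0.84 ± 0.14). The outputs Usp2 and Wee1 rose in both tissues and more in liver, at 3.30 ± 0.11 and 2.05 ± 0.15. G6pc (difference -2.78 ± 0.31), AY512949 (-1.86 ± 0.15), Dab1 (-1.60 ± 0.12) and Tmem252 (-1.61 ± 0.17) fell in gut and lay between 0.02 and 0.28 in liver. Tns4 (1.79 ± 0.19) and Abcb1b (1.63 ± 0.22) rose in gut and lay at -0.01 and -0.14 in liver. Of these genes, G6pc averaged 12.21 and Tmem252 7.235 in liver at ZT0. AY512949, Dab1, Tns4 and Abcb1b were dim there (5.32, 6.01, 5.98 and 6.38), and dim signal limits what a flat liver value shows. The glutathione synthesis gene Gclc rose by 0.55 ± 0.13 in gut and was at -0.98 ± 0.11 in liver, Apol7a was at -0.91 ± 0.19 in gut and 0.78 ± 0.18 in liver, and the retinol dehydrogenase gene Dhrs9 was at -0.65 ± 0.16 in gut and -2.26 ± 0.15 in liver. The gut calls of Gclc ended without ZT0 replicate 5 or ZT12 replicate 8, 10 or 12 and with the B cell marker covariate, and those of Dhrs9 without ZT0 replicate 1 or 5 or ZT12 replicate 12 or 13. By their titles, 6 mice gave arrays of both tissues.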

How the data were processed

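RNA of gut and liver was hybridised to expression arrays with 1 value per transcript cluster. The deposited value table holds linear intensity, computed by the authors with PLIER per the submitters' processing notes; version, array design file and build are not given in the sources used here. It holds 35556 clusters, of which 23811 (67.0%) carry a symbol in the deposited comparison tables. Symbols were updated through RefSeq by accession (22726), current symbol (688) or older name (108), and 289 were kept unmatched. For genes with several clusters the one with the highest gut mean was kept, which left 20702. Intensity plus 16 was taken to log2 and quantile normalised within tissue. The number of arrays limits precision.

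For each gene, limma 3.58.1 under R 4.3.3 (lmFit, then eBayes, two-sided) was fitted over the 24 gut arrays in 6 groups (18 residual degrees of freedom), and over the 16 KD arrays of both tissues (12 residual degrees of freedom), with Benjamini-Hochberg adjustment over the genes and a threshold of 0.05. Donor diets were compared by contrasts of the time differences. The 25 gene lists (469 of 475 members measured) and 21 marker lists are described by counts and medians, with no list test. Tables and drawings were made in Python 3.11.15 with pandas 2.3.3, numpy 2.4.6 and matplotlib 3.10.9.

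Genes were named by rule: the 15 highest and 15 lowest called differences; the core clock list; up to 5 called members of each other list, or 2 where none was called; up to 10 called genes of each donor comparison, or the 4 with the smallest p; and the 8 highest and 8 lowest gut against liver differences also called in gut. Some genes it would name are counted in their lists and not reported here by name. The rule leaves out antigen receptor segments, olfactory receptors, small RNAs and predicted genes. Genes named as markers or neighbours of a list are exceptions, chosen after their values were seen. The comparison, members and lists were chosen with earlier results of these data known. Alternatives were no quantile step, an offset of 1, no dim genes, each cluster tested on its own, array weights, a robust eBayes prior that follows intensity, the 2 groups alone, a B cell marker covariate, a replicate block, and leaving out each array. Leaving out KD ZT0 replicates 1, 4 and 5 together was added after the data were seen.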

Additional observations from a re-analysis of the deposited data

Results flagged for a closer look

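Among 212 sets of 4 arrays (106 named genes at 2 times), 9 (4.2%) held 1 array far from the other 3, with a gap to the nearest beyond Dixon's critical value for 4 values; chance flags about 1 in 20 sets. Those at ZT0 replicate 4 were Usp2 at 8.56 (others 8.83 to 8.86), Mvk at 7.85 (others 8.03 to 8.06) and Slc51a at 11.67 (others 11.93 to 11.98), each the lowest. Those at ZT0 replicate 1 were Nat8f5 at 8.47 (others 7.22 to 7.37), Rbm3 at 11.40 (others 11.20 to 11.21) and Tjp3 at 10.29 (others 10.41 to 10.43). Cpt2 was 9.72 in ZT0 replicate 5 (others 9.84 to 9.86). In ZT12 replicate 10, G6pc was 7.16 (others 6.16 to 6.32) and Ypel2 7.68 (others 7.42 to 7.44). For Usp2, Mvk, Slc51a, Rbm3, Tjp3, Nat8f5, Cpt2, G6pc and Ypel2 the arrays of the 2 times did not overlap with that array included. The same held for 765 of the 826 called genes.

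Olfr192 was the 1 gene whose time difference in KD recipients differed from that in NC recipients, by 0.90 log2 units (adjusted p = 0.0225, interaction contrast in limma). Its 8 KD arrays overlapped between the times, at 4.68, 4.68, 4.87 and 4.70 and then 5.02, 4.68, 5.08 and 4.96. No gene passed this test without the quantile step, with an offset of 1, without dim genes, with the B cell marker covariate or in most fits that left out 1 array.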

How the results depend on the processing

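The count of 826 genes was 1382 with array weights, 352 with the B cell marker covariate and 48 without KD ZT0 replicates 1, 4 and 5, and ran from 343 to 816 when each array was left out; the cause of these shifts was not tested, except that fewer arrays were fitted in the last. It was 765 to 959 under the 6 other alternatives, but the genes called were not all the same. With only the 2 groups compared, 518 of 765 were among the 826, and 331 were higher and 434 lower. Without the quantile step, 701 of 954 were among them, with 474 higher and 480 lower. Under the rest of these alternatives 770 to 813 were shared. Of 106 named genes, 92 were called, 24 of these under each of the 17 alternatives and 62 whichever single array was left out, and none of the 92 changed sign. Of the uncalled, Rora ran from -0.0203 to 0.0424 and Csnk1d from -0.0634 to 0.0168 when each array was left out, with the sign turned without ZT0 replicate 1 or ZT12 replicate 12 or 13 for Rora and without ZT12 replicate 8 for Csnk1d. The KD against NC difference had 0 genes without the quantile step, with an offset of 1, without dim genes and with the covariate, 0 to 1 when each array was left out, and 149 (1 higher and 148 lower) with the replicate block; KD against HF had 0 throughout, the replicate block included. Gut against liver had 365 to 886 genes when each array was left out (365 without liver ZT12 replicate 12, 886 without liver ZT0 replicate 7), 560 with mouse as a random replicate block, and 473 to 834 under the other alternatives. No paired analysis was possible because no replicate number recurs between ZT0 and ZT12 in the KD gut arrays; deviations of arrays sharing a number with NC or HF arrays correlated between -0.27 and 0.46 over 11 pairs, so the numbers were not taken to pair donors, and the blocked counts rest on a shared number alone. Scaling moved the median over all genes by less than 0.1. Calls among dim genes were fewer, and dim signal limits what can be called there.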
